A study of Mus musculus with 3 samples.

Results

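The 10 genes described here encode transcription factors of epithelial and mammary lineages, namely the Ets family members Elf3, Elf5 and Ehf, the Krüppel-like factors Klf4 and Klf5, Ovol1, Gata3, Foxa1, Cebpb and Tcfap2c (now named Tfap2c). Every probe for mRNA that carried 1 of these gene names was taken, which gave 15 of the 41174 probes (10 of 29273 gene names) on the array. Elf3, Elf5, Klf4, Gata3, Foxa1 and Tcfap2c had 1 probe each, Klf5, Ovol1 and Cebpb had 2, and Ehf had 3. EpH4-PR cells were profiled on 3 Agilent 2-colour arrays of the mouse transcriptome, numbered as replicates 1 to 3. EpH4 is a line of mouse mammary epithelial cells, and EpH4-PR cells are EpH4 cells stably transfected with the A isoform of the progesterone receptor (PR-A), from which clones were selected. They were grown in DMEM with 10% FBS to about 75% confluence, and no hormone treatment is given for these samples. On every array EpH4-PR RNA was labelled with Cy5 and a commercial reference RNA (Stratagene mouse standard) with Cy3, with no dye swap, so that a dye effect and a difference in level cannot be told apart. The promoter that drives the PR-A transgene, and whether the arrays came from separate clones or cultures, are not given in the sources used here, so p-values measure only the spread between these arrays, which may be technical. EpH4-EV control cells were not analysed here. The values therefore compare EpH4-PR RNA with reference RNA and are no measure of an effect of PR.

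These factors bind DNA through different domains and together set and hold the state of epithelial cells. In the mammary gland Gata3 is needed to form and keep luminal cells, Foxa1 opens chromatin for the estrogen receptor, Elf5 directs progenitors towards milk-secreting alveolar cells, and Cebpb is needed for normal ducts and alveoli. Elf3 and Ehf are Ets factors largely confined to epithelia. Klf4 is tied to the differentiation of epithelia and Klf5 to their proliferation, Ovol1 represses genes of the mesenchymal state, and Tcfap2c (AP-2γ) acts in luminal cells.

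The 250 bases upstream of the annotated starts of Gata3, Klf4, Cebpb and Elf5 were read from RefSeq promoter windows of assembly GRCm38.p6. They show the DNA in front of members above the reference and of a member near background. Gata3 gave the highest ratio, Klf4 and Cebpb were also above the reference, and the Elf5 probe was not well above background in EpH4-PR RNA. The table held 7 windows for 6 of the 10 genes (Elf3, Elf5 with a pair of starts, Gata3, Cebpb, Klf4 and Foxa1). Sequences run 5′ to 3′ on the strand of the gene, and capitals mark each CpG dinucleotide.
Gata3, chr2:9878601-9878850, minus strand: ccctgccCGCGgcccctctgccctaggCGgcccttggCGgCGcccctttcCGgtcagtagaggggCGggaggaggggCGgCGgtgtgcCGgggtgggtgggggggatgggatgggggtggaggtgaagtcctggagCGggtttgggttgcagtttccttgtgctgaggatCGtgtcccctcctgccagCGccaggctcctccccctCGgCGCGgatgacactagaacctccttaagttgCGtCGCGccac
Klf4, chr4:55532476-55532725, minus strand: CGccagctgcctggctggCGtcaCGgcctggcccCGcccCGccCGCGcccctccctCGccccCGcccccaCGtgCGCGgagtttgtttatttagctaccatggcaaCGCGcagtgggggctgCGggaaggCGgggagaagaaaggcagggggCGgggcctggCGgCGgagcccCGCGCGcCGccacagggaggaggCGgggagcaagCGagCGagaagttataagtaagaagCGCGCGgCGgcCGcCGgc
Cebpb, chr2:167688665-167688914, plus strand: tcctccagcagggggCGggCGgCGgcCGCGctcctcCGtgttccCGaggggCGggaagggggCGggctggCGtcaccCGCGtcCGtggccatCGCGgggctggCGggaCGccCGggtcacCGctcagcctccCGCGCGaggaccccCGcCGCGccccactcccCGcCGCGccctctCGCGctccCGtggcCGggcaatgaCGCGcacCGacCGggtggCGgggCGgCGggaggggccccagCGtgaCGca
Elf5, upstream start, chr2:103411848-103412097, plus strand: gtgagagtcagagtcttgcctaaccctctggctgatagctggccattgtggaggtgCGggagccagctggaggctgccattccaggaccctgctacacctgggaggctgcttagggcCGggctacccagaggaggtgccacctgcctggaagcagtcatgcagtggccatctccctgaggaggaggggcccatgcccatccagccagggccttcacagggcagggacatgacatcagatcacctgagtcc
Elf5, downstream start, chr2:103423818-103424067, plus strand: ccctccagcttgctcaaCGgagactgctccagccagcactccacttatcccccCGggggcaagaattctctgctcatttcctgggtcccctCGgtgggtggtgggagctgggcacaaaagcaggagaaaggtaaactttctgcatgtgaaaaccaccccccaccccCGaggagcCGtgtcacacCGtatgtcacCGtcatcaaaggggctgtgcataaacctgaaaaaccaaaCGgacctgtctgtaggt
The Cebpb window held 41 CpG dinucleotides, the Klf4 window 32 and the Gata3 window 19, against a median of 6 over 32851 windows of the same length. The upstream Elf5 window held 2 and the downstream one 8. Relative to the number that its C and G content would give, CpG stood at 0.99 in the Cebpb window, 0.94 in the Klf4 window and 0.63 in the Gata3 window, against 0.08 and 0.40 in the Elf5 windows and a median of 0.37 over all windows. The windows of Foxa1 and Elf3, which are not printed, held 21 and 8. Relative to C and G content these were 0.89 for Foxa1, above the Gata3 window, and 0.39 for Elf3.

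Short motifs of the members' own families were searched on both strands of the 7 windows. The AP-2 motif GCCNNNGGC was found in the windows of Gata3 and Klf4 and in 13.7% of all windows. The Cebp motif TTGCNNAA was in both Elf5 windows and in 9.56% of all windows. The forkhead motif TGTTTAC was in the Foxa1 window and in 3.17% of all windows. The Ets motif CCGGAAG, the Krüppel-like motif CCACACCC, the Gata motif AGATAAG and the Ovol motif CCGTTA were in 0 of the 7 windows, and in 6.91%, 3.20%, 2.74% and 2.18% of all windows. These matches describe letters only. In the RefSeq gene table of the same assembly Ehf and Elf5 lay on chromosome 2 with 2 genes between them, of which 0 were protein-coding.

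Each value below is the log2 ratio of EpH4-PR to reference signal after correction for local background, addition of an offset and loess normalization within the array. Loess sets 0 by the ratios of probes of similar intensity, so 0 need not be an equal level of RNA. A value of 1 is a doubling of this normalized signal. Folds, and the words higher and lower, refer to this scale. Values of dim probes such as those for Ovol1 also depended on the offset, as described with the other settings. A probe was called when its mean differed from 0 at an adjusted p under 0.05 (limma, Benjamini-Hochberg adjustment over 41171 probes) and was at least 1 in size. By the flag of the scanner software, 29603 to 30939 probes per array were well above background in Cy5. Of the 15 member probes, 12 had this flag in EpH4-PR RNA on all 3 arrays, which covered 9 of the 10 genes (all but Elf5), and 0 were saturated. Among the 25727 probes with the flag in both channels on all arrays, the median SD over the arrays was 0.09, and 4 member probes had over 2 times this SD (Foxa1, both Klf5 probes and the Ehf probe A_52_P609918).

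**Figure D1:**
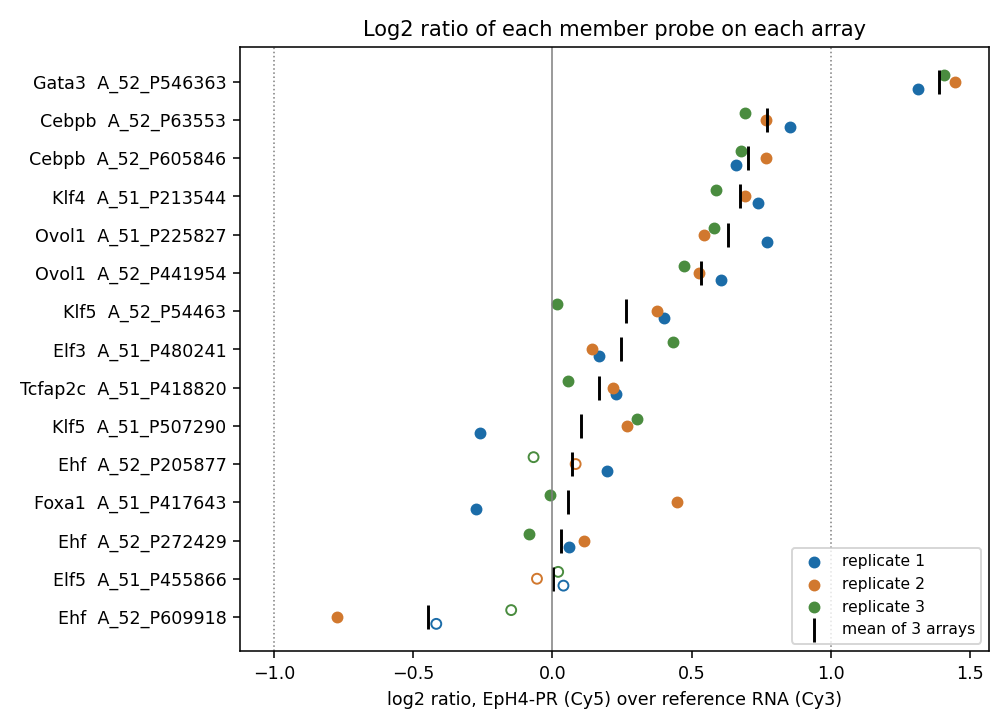
Log2 ratio of EpH4-PR (Cy5) to reference (Cy3) signal for the 15 member probes, with 1 point per array (filled where the probe was well above background in EpH4-PR RNA, open where it was not), a bar at the mean and dotted lines at 1 and -1. Gata3 stands alone above 1, the Cebpb, Klf4 and Ovol1 probes lie between 0.47 and 0.86 on every array, and the other probes lie closer to 0 or below it.

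Gata3 was the member with the highest ratio. Its probe A_52_P546363 read 1.32, 1.45 and 1.41 on replicates 1, 2 and 3. The mean of 1.39 ± 0.07 (SD, n = 3) was a 2.62-fold difference (SE 0.05, adjusted p = 4.0e-05 by limma). Gata3 was the only member called higher, and 0 members were called lower, where 2.26% of all probes were called higher and 3.83% lower. At an unadjusted p under 0.05, 1 member probe was lower, and by the methods' t-test 0 were called lower. The raw Cy5 intensity of this probe was 1956, 1822 and 2106, which was 26.9, 24.6 and 36.8 times the median negative control spot of the same array. In the reference channel it was 2.92, 2.57 and 3.56 times the median negative control. All arrays thus showed Gata3 well above background in both channels with little spread between them.

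Foxa1, the pioneer factor of hormone-responsive luminal cells, read -0.27, 0.45 and -0.01. The arrays lay on both sides of 0, and the mean of 0.06 ± 0.36 (SD, n = 3) did not pass the test (adjusted p = 0.76 by limma). Its probe A_51_P417643 had the largest SD of all member probes. Both channels had the flag for well above background on every array. In Cy3, however, the probe stood at only 1.52, 1.08 and 1.35 times the median negative control. The Cy5 intensity was 2.51, 2.07 and 2.70 times the median negative control, so Foxa1 transcript was detected in EpH4-PR RNA.

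Cebpb, a leucine zipper factor, was higher in EpH4-PR RNA by both of its probes. Probe A_52_P63553 read 0.86, 0.77 and 0.69 with a mean of 0.77 ± 0.08 (SD, n = 3; adjusted p = 2.3e-04 by limma). Probe A_52_P605846 read 0.66, 0.77 and 0.68 with a mean of 0.70 ± 0.06 (adjusted p = 2.4e-04 by limma). The probes differed by 0.07 ± 0.11 within arrays, which is within the spread between arrays, and the lowest of the 6 readings was 0.66. The first probe had the brightest spots among the members, 224 to 309 times the median negative control in Cy5, and 26.3 to 38.4 times in Cy3.

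Klf4 was also higher in EpH4-PR RNA, at 0.74, 0.69 and 0.59. The mean was 0.67 ± 0.08 (SD, n = 3; adjusted p = 3.4e-04 by limma), a 1.59-fold difference. Its Cy5 intensity was 31.7 to 55.8 times the median negative control. The Klf5 probes did not pass the test over the 3 arrays and scattered more. Probe A_51_P507290 read -0.26, 0.27 and 0.30, and its mean of 0.10 ± 0.32 did not pass the test (adjusted p = 0.51 by limma). Probe A_52_P54463 read 0.40, 0.37 and 0.02, with a mean of 0.26 ± 0.22 (adjusted p = 0.059 by limma). Replicate 1 was the lowest array by the first probe and the highest by the second, and the probes differed by 0.16 ± 0.48. Single arrays decided both values. The first probe read 0.29 without replicate 1 (adjusted p = 0.027 by limma), 0.02 without replicate 2 and 0.00 without replicate 3, and the second 0.39 without replicate 3 (adjusted p = 0.0031 by limma). Both Klf5 probes were well above background in EpH4-PR RNA on all 3 arrays.

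Ovol1, a zinc finger repressor, was higher in EpH4-PR RNA by both probes. Probe A_52_P441954 read 0.61, 0.53 and 0.47, with a mean of 0.54 ± 0.07 (SD, n = 3; adjusted p = 6.6e-04 by limma). It had the flag for well above background in both channels, but in Cy3 stood at only 1.05, 1.04 and 1.04 times the median negative control. Probe A_51_P225827 read 0.77, 0.55 and 0.58 with a mean of 0.63 ± 0.12 (adjusted p = 8.4e-04 by limma). This probe was well above background in EpH4-PR RNA on all 3 arrays and in reference RNA on 0. The mean was a 1.55-fold difference and is no lower bound. After normalization the reference signal of the probe was not below the dimmest signal well above background on the array. The Cy3 intensity of this probe was 0.93, 0.95 and 0.96 times the median negative control. The Ovol1 values depended on how the background was removed, as described with the other settings.

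With loess and the offset, the 3 Ets genes lay close to the reference or could not be placed. Elf3 read 0.17, 0.14 and 0.43, above 0 on every array and highest on replicate 3, with a mean of 0.25 ± 0.16 (SD, n = 3; adjusted p = 0.039 by limma). This passed the test narrowly and was lost without replicate 1 or without replicate 2, where the adjusted p ranged up to 0.073. It passed under 8 of the 13 alternatives. Elf3 read 0.88 by the scanner software and 0.44 without the offset. With each array only centred on its median it read 0.74, which was 0.10 above the median of probes of its intensity. Elf3 had the flag for well above background in both channels, at 2.74 to 3.60 times the median negative control in Cy5. In Cy3 it stood at only 1.38, 1.32 and 1.29 times the median negative control.

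Elf5 was not well above background in EpH4-PR RNA on any array. Its Cy5 intensity was 72.2, 76.8 and 57.9, beside a median negative control of 72.6, 74.1 and 57.3, and exceeded 46.8%, 70.4% and 64.0% of the 314 negative control spots. In reference RNA it had the flag on replicate 2 alone. The log2 ratios of 0.04, -0.06 and 0.02 therefore compare signals near background in both channels, and no fold is given. Elf5 mRNA was not detectable above background with this probe in EpH4-PR RNA, which does not show that it was absent.

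Ehf was detected by 1 of its 3 probes on all arrays. Probe A_52_P272429 read 0.06, 0.11 and -0.09, with a mean of 0.03 ± 0.10 (adjusted p = 0.68 by limma). It had the flag for well above background in both channels, but in Cy3 stood at only 1.12, 1.11 and 1.17 times the median negative control. Probe A_52_P205877 read 0.19, 0.08 and -0.07 and had the flag in EpH4-PR RNA on replicate 1 alone. Probe A_52_P609918 read -0.42, -0.77 and -0.15, with a mean of -0.45 ± 0.31 (adjusted p = 0.033 by limma), and had the flag in EpH4-PR RNA on replicate 2 alone and in reference RNA on replicates 1 and 2, and it passed the test under 6 of 12 alternatives, not without replicate 1 (-0.46) or without replicate 2 (-0.28). It was lower than the other Ehf probes on every array, by 0.48 ± 0.41 and 0.52 ± 0.40 on average. The probes of Ehf thus disagree, and the 1 detected in both channels on all arrays lay near 0.

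Tcfap2c read 0.23, 0.22 and 0.06, above 0 on every array, with a mean of 0.17 ± 0.10 (SD, n = 3; adjusted p = 0.053 by limma), which did not pass the test, and 0.22 without replicate 3 (adjusted p = 0.017 by limma). Its probe had the flag for well above background in both channels, at 1.27 to 1.58 times the median negative control in Cy5. In Cy3 it stood at only 1.04, 0.99 and 1.12 times the median negative control.

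**Figure D2:**
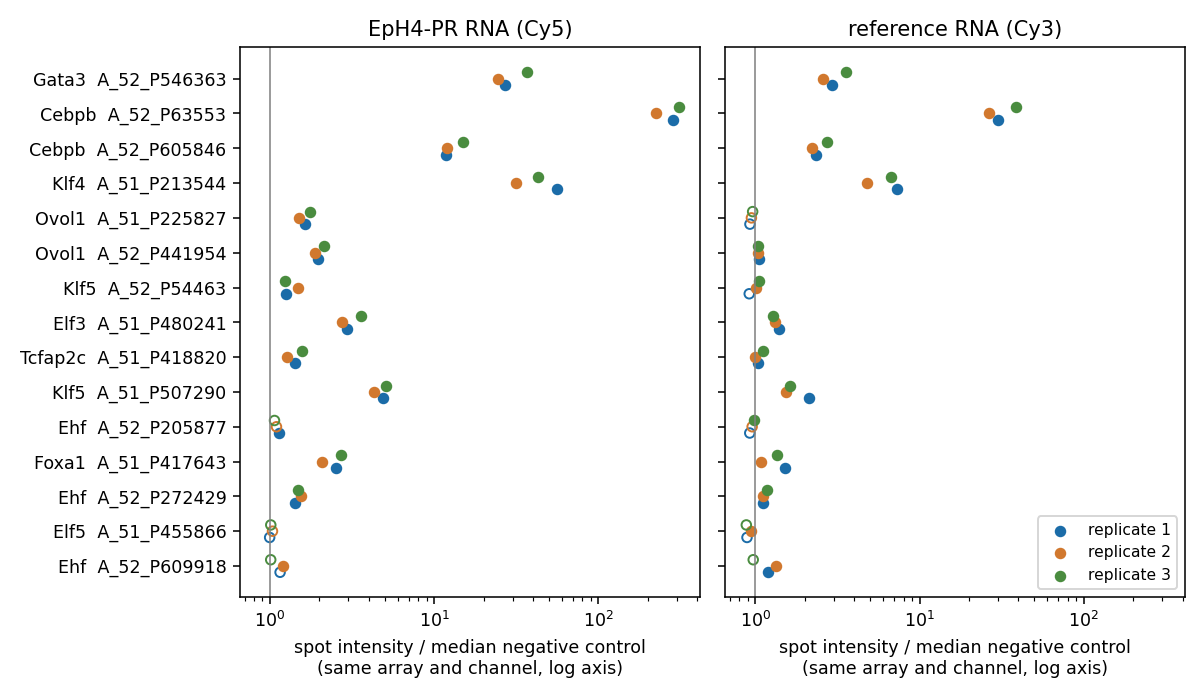
Spot intensity of each member probe divided by the median negative control spot of the same array and channel, on a log axis, for EpH4-PR RNA (left) and reference RNA (right), with 1 point per array (open where the probe was not well above background). In EpH4-PR RNA the Gata3, Cebpb and Klf4 probes lie over 10 times above the negative controls, Elf5 lies at 1, and most members lie near 1 in reference RNA.

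In the order of mean ratios the range of Gata3 over the arrays did not overlap that of any other member. From Cebpb through Klf4 to Ovol1 each range overlapped the next, while both Cebpb probes lay above the Ovol1 probe A_52_P441954 without overlap. A gap separated the lowest of these probes, Ovol1 A_52_P441954, from the highest Klf5 probe. From there down to Elf5 each range overlapped the next, and the Ehf probe A_52_P609918 had the lowest mean, with a range that overlapped those of Foxa1 and of Klf5 A_51_P507290. By the adjusted p alone, 7 of the 15 probes (Gata3, both Cebpb, Klf4, both Ovol1 and Elf3) were higher, 1 was lower and 7 did not pass. Across all probes 25.6% were higher and 24.7% lower by this rule. The ratio was above 0 on all 3 arrays for 9 member probes and below 0 for 1, where 35.5% and 36.4% of all probes were so. The median over the member probes was 0.25 and over all probes -0.01. The member median was 0.45 with no offset added after background correction, 0.69 by the scanner software and 0.48 with median centring.

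The values of several members changed with the way the ratio was computed. Without loess, with each array only centred on its median, Gata3 read 2.60, the Cebpb probes 2.28 and 1.77 and Klf4 2.00, all of which were then called higher, as were 17.1% of all probes. With this centring the median of all probes depended on their intensity, from -0.17 between 6 and 7 log2 units to 1.52 between 11 and 12. The bright members lay above the median of all probes of their own intensity, by 1.35 for Gata3, 0.88 and 0.75 for Cebpb and 0.59 for Klf4. The dim Ovol1 probes lay 0.66 and 0.75 above the median of their intensity. They read 1.89 and 1.24 when no offset was added after background correction, and 2.23 and 1.71 in the log ratio of the scanner software. The Ovol1 probes were called higher in both, as were 7.59% and 8.78% of all probes, while they read 0.48 and 0.58 with median centring. The Klf5 probe A_52_P54463 read 1.56 by the scanner software but did not pass the test there (adjusted p = 0.17 by limma). The Ehf probe A_52_P609918 was called lower without the offset, at -1.17, as were 3909 of all 41171 probes. By the adjusted p alone median centring put 9 member probes higher and 3 lower. It added Foxa1 at 0.40 and Klf5 A_51_P507290 at 0.87 to the higher probes and Elf5 at -0.22 and Ehf A_52_P205877 at -0.18 to the lower ones. Of all probes 42.5% were higher by this rule, and the share that was lower is not given here. Gata3 was called higher under each of the 13 alternatives.

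**Figure D3:**
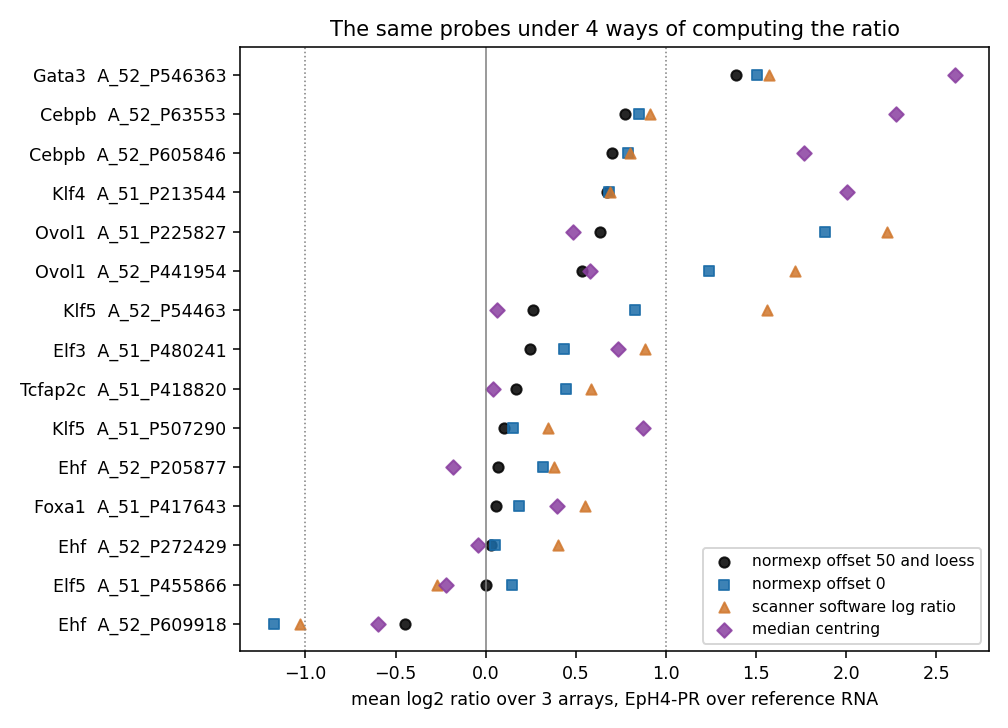
Mean log2 ratio over 3 arrays of EpH4-PR to reference signal for each member probe, as reported here (black), without an offset after background correction, by the log ratio of the scanner software, and with median centring in place of loess; dotted lines stand at 1 and -1. Gata3 lies above 1 with every symbol, Cebpb and Klf4 pass 1 with median centring alone, and the Ovol1 probes pass it without the offset and by the scanner software.

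**Figure D4:**
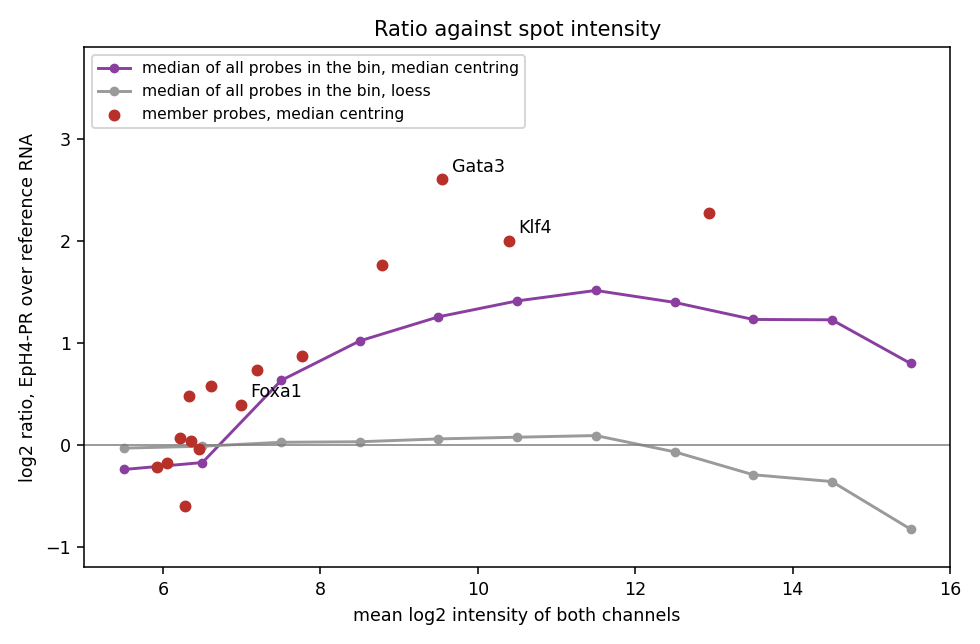
Log2 ratio of EpH4-PR to reference signal against the mean log2 intensity of both channels. Lines join the medians of all probes in bins of 1 log2 unit, with median centring (purple) and loess (grey), and red points are the member probes with median centring; the purple line climbs to 1.52 while Gata3 lies at 2.60.

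Other genes of the same families were set beside the members as a description. Among 9 probes for the other Gata genes, 0 were called higher and 1 lower, with a median of -0.31 that stayed negative without the offset, by the scanner software and with median centring. That probe was for Gata6, an endodermal factor, at -2.33 ± 0.26 (SD, n = 3; other Gata6 probes read -0.31 and -0.66). Gata2, a blood factor, read -0.94 ± 0.19 (-0.35 by a second probe), and Gata4 and Gata1 read 0.03 and 0.13, neither past the test. Gata3 at 1.39 thus lay above every other Gata probe, of which the highest read 0.13. Only 5 of these 9 probes were well above background in EpH4-PR RNA on all 3 arrays. Of 7 probes for 4 other Cebp genes, 0 were called higher and 2 lower, with a median of -0.49 that was negative under these settings too. Cebpd, an acute phase factor, was lower at -3.77 ± 0.11 and Ddit3, a stress factor, at -1.59 ± 0.07, while the Cebpa probes read -0.10 (0.11 with median centring) and -0.07 and did not pass the test. The 3 Cebpg probes read -0.68, -0.49 and -0.33, but -0.53, 0.46 and 0.64 with median centring.

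The other families were mixed. Of 28 probes for other Ets genes 3 were called higher and 2 lower, with a median of 0.09. Gabpa read 1.16 ± 0.06, and its other probes 1.02 and -0.14 (0.95 with median centring). Elf4 read 1.20 ± 0.12, although a second Elf4 probe read -0.58. The endothelial and blood factor Fli1 read -2.33 ± 0.18 (-0.92 by a second probe) and Etv1 -1.70 ± 0.10. Of 24 probes for other Krüppel-like factors 2 were called higher and 2 lower, and their median of -0.01 turned to 0.01 by the scanner software and to 0.18 with median centring. Klf3 read 1.01 ± 0.10, and 0.62 by a second probe. The probes of Klf2 disagreed, at 1.08 ± 0.13 and -2.12 ± 0.11, and Klf10 read -1.07 ± 0.07 but 0.12 with median centring. Ovol2 had probes at 0.68 ± 0.11, which passed the test, and at 0.20 ± 0.38, which did not. The other AP-2 genes had a median of 0.18 over 7 probes, which turned to -0.04 with median centring. Tcfap2e read 0.58 ± 0.09, Tcfap2a 0.34 ± 0.06 and Tcfap2d 0.33 ± 0.05, all past the adjusted p and none at least 1. Second probes of Tcfap2e and Tcfap2a read -0.01 and 0.18 and did not pass. Foxa2 read -0.20 ± 0.06 and Foxa3 0.15 ± 0.13, of which only Foxa2 passed the adjusted p.

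**Figure D5:**
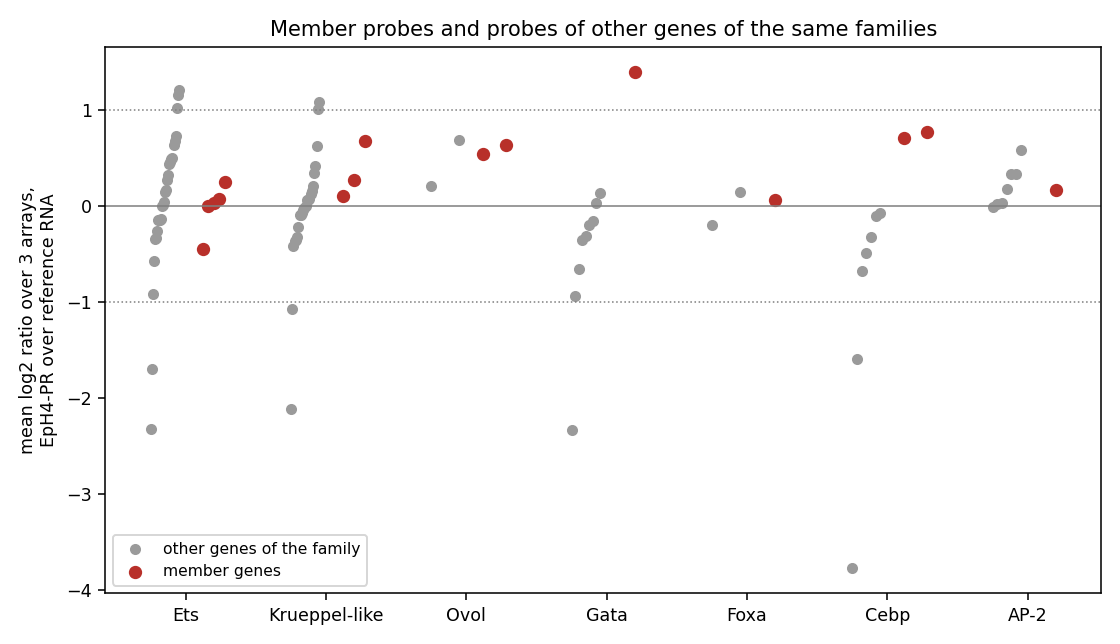
Mean log2 ratio over 3 arrays of EpH4-PR to reference signal for the member probes (red) and the probes of other genes of the same families (grey); dotted lines stand at 1 and -1. Gata3 at 1.39 and the Cebpb probes at 0.70 and 0.77 lie above all other probes of their families, whereas the Ets and Krüppel-like members lie within the range of theirs.

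Of 41 probes for other regulators of mammary lineages 4 were called higher and 5 lower, with a median of -0.08. Grhl2, a grainyhead factor of epithelial junctions, read 2.75 ± 0.18 by 1 probe and 0.16 and 0.02 by others. Esr1, the estrogen receptor, read 1.12 ± 0.08 and -0.50 by a second probe. Both probes of Id2, an inhibitor of helix-loop-helix factors, were lower, at -3.44 ± 0.10 and -2.11 ± 0.12. The progesterone receptor gene Pgr had 2 probes, each well above background in EpH4-PR RNA on 1 array, and whether they lie within the transfected sequence is not given in the sources used here. Of 17 probes for transcription factors of the epithelial-mesenchymal transition 0 were called higher and 8 lower, with a median of -0.97, which was -0.49 with median centring. Snai2 was lowest at -3.02 ± 0.14, followed by a Tcf4 probe at -2.09 ± 0.09 (others read -1.34 and -0.03). The highest were a Prrx1 probe at -0.02, where other Prrx1 probes ran down to -1.45, and Twist1 at -0.02 (0.80 with median centring), neither past the test. By the adjusted p alone 0 probes of these epithelial-mesenchymal factors, of the other Gata or Cebp genes, of the milk genes or of the mesenchymal markers were higher (limma), and at an unadjusted p under 0.05 this held for 1 probe of the milk genes and 0 of the others. Among 13 probes for milk genes, part of the alveolar programme that Elf5 serves, 0 were called higher and 1 lower. That was Mfge8, at -1.02 ± 0.06 but 0.46 with median centring. Among milk probes well above background in at least 1 channel on all arrays, Wap read -0.29 ± 0.57, and Lalba and Ltf read 0.03 and 0.01, none past the test. The highest milk probe, for Csn1s2b, read 0.13 and was well above background in EpH4-PR RNA on 1 array.

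Marker genes were read to check the labelled cell type. All 11 luminal epithelial genes were well above background in EpH4-PR RNA on all 3 arrays, with 9 of 14 probes called higher and 1 lower. All 11 mesenchymal and all 7 blood genes were also well above background by at least 1 probe. This flag therefore did not set the luminal genes apart. Cdh1 (E-cadherin) read 4.29 ± 0.10 and Krt7 3.99 ± 0.08, while Krt19 read -2.62 ± 0.18 and Muc1 -0.71 ± 0.27 (-0.05 by a second probe). Of 13 basal and myoepithelial probes 1 was called higher, Krt14 at 2.08 ± 0.13, and 1 lower, an Acta2 probe at -2.01 ± 0.15. The other Acta2 probes read 0.60 ± 0.11, 0.00 and -0.16, and Cnn1 read -0.68 ± 0.17. Of 23 mesenchymal probes 0 were called higher and 13 lower, with Vim (vimentin) at -6.51 ± 0.11 and Col3a1 at -5.10 ± 0.10. Probes of these genes disagreed in size, since a second Vim probe read -0.14 and the other Col3a1 probes -0.14 and -0.23. A Pdgfra and a Fn1 probe read -0.09 and -0.04, where other probes read -3.34 for Pdgfra and -1.21 and -0.50 for Fn1 (0.13 and 0.33 with median centring). Ptprc, the pan-leukocyte gene, had a probe not well above background in EpH4-PR RNA on any array. With loess and the offset, Ptprc by this probe was at least 19.8-fold higher in reference RNA. This bound holds for that setting only, and the probe read -3.75 with median centring. A second Ptprc probe, well above background in both channels, read -1.40 ± 0.06, and the remaining one -0.19. Emr1 read -2.56 ± 0.24 and, by a second probe, -0.40. A Cd3e and a Hbb-b1 probe read 0.11 and 0.38, the latter past the adjusted p, where the other Cd3e probe read -0.37 and the other Hbb-b1 probes -0.15 to 0.02. The endothelial probes (0 of 5 called) ran from Cdh5 at -0.20 to Kdr at 0.20, and the adipocyte probes (0 of 6 called) had Fabp4 at -0.76 and -0.71, Lep at -0.43 and Plin at -0.19. A ratio also depends on what the reference RNA holds, and its makeup and the level in EpH4-PR cells cannot be told apart.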

How the data were processed

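Total RNA from EpH4-PR cells (Cy5) was hybridised with reference RNA (Cy3) to each of 3 arrays. The authors deposited the output of Agilent Feature Extraction 8.1.1.1 (per the file headers), in which each of 43790 spots has an intensity and a local background intensity in both channels, and a log10 ratio (Cy5 over Cy3). Their table of a comparison between unnamed sides (fold changes with p-values) was not used.

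In R 4.3.3 with limma 3.58.1, mean spot intensity was corrected with normexp (offset 50). Control spots were dropped, and outlier spots (150, 18 and 3) left out. Arrays were normalized by loess, spots of a probe averaged, and ratios tested against 0 with lmFit and eBayes and Benjamini-Hochberg adjustment. Calls needed an adjusted p under 0.05 and a mean log2 ratio of 1 or more in size. Different probes of 1 gene were not averaged. Precision is limited by the number of arrays. The fit was tested on simulated data for this comparison (41174 probes). It recovered 100% of 200 probes shifted by 1.5 log2 units, with 0 false calls. The shifted probes were drawn from those brighter than the median, and every probe was given the median SD. Recovery of dim or noisier probes and of smaller shifts was therefore not tested.

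Current symbols came from a RefSeq gene table (GRCm38.p6), which matched 21445 of 23705 probes with such an accession and 13 of the 15 member probes. It added 0 probes by accession. Of each family or regulator list, the 2 highest and 2 lowest probes well above background in at least 1 channel on all arrays were named (all genes of lists of up to 3), and of each marker list likewise. Other probes of a named gene, Pgr, Cebpg and Csn1s2b were added after their values were seen. The members, the lists and this rule were chosen with earlier results of these data known. Likeness to other genes was not computed, since there is 1 condition. Alternatives were normexp without an offset, the scanner's log ratio, median centring, scaling between arrays, dim probes left out, outlier spots kept, the median of the spot's pixels, a variance trend with intensity, the methods' t-test (unadjusted and adjusted), and each array left out.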

Additional observations from a re-analysis of the deposited data

How the results depend on the processing

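Gata3 was called higher under each of the 13 alternatives, between 1.36 and 2.60. The Cebpb, Klf4 and Ovol1 probes stayed higher at an adjusted p under 0.05 wherever they were fitted. Normexp offset 0, the scanner software log ratio and median centring gave 3125, 3616 and 7031 probes higher and 3909, 3887 and 708 lower, against 932 and 1578, so the share of higher calls moved from 37.1% to 44.4%, 48.2% and 90.9%. Of the member probes 3, 3 and 4 were then called higher and 1 lower (offset 0), against 1 and 0. Over all lists, against 19 probes called higher, 40 lower and a median of -0.10, the lower calls were 64, 66 and 25, the higher calls 38 with median centring, and the median -0.21, -0.20 and -0.17. The cause was not tested. The Elf5 ratio of 0.00 turned to -0.27 by the scanner software, -0.22 with median centring, and ranged from -0.017 (without replicate 1) to 0.030 (without replicate 2) with an array left out, at -0.0078 without replicate 3. Ehf A_52_P205877 turned to -0.18 and Ehf A_52_P272429 to -0.043 with median centring, and the latter to -0.014 by median spot signal. With an array left out, Ehf A_52_P272429 ranged from -0.013 to 0.087 and Foxa1 from -0.14 to 0.22, each lowest without replicate 2. Leaving out 1 array gave 932 to 951 probes higher and 1580 to 1599 lower, with 1 member probe called higher each time. The filter to probes well above background in both channels left 10 of the 15 member probes, and Elf5 was not among them. By the methods' t-test 929 probes were higher and 1577 lower, and 897 and 1548 after Benjamini-Hochberg adjustment. No paired analysis was possible because the arrays form 1 group. Slide could not be fitted as a block, since each of the 3 slides holds 1 array. Signal over background limits the Elf5, Ehf, Elf3, Foxa1, Ovol1, Tcfap2c and Klf5 A_52_P54463 values, which lie near the negative controls in at least 1 channel.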
